A study of Mus musculus with 12 samples.

Results

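The integrin receptors described here are 10 genes, chosen by name from the 24906 genes listed in the expression tables: the α subunits Itga2, Itga3, Itga5, Itga6 and Itgav, and the β subunits Itgb1, Itgb4, Itgb5, Itgb6 and Itgb8. They were followed by RNA-Seq in 12 libraries of mouse serrated tumor organoids with the genotype Smad4KO;BRAFV600E/+ and a lentiviral pINDUCER-SMAD4 construct. The organoids came from Smad4f/f;BRAFV600E/+;Villin-CreERT2 mice, in which the Villin promoter drives a tamoxifen-activated Cre recombinase in the gut epithelium. All groups shared the Smad4 deletion and the BRAF mutation and, per the labels, the construct, with 1 library in doubt as given below, and differed in doxycycline (dox, 4 µg/mL for 48 h or none) and in the environment they grew in. In basement membrane extract (BME), a laminin-rich gel for 3D growth, there were 3 untreated libraries (lines 682, 700 and 889) and 2 dox libraries (lines 700 and 889). The remaining BME library, of line 682, has a treatment label that reads dox with the word mock while its title and genotype read as induced, and whether it carried a mock plasmid is not given in the labels. The study counts 4 vehicle and 2 dox samples in BME, so this library was kept in the control arm and its values are given apart. Tissue culture plastic was represented by 3 untreated libraries and 3 with dox, from lines 560, 700 and 889. A line is an independently engineered organoid line, so the spread between libraries of a group is a spread between lines, and each dox library forms a same-line pair with the untreated library of its line.

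Values are FPKM, the fragments per kilobase of transcript after scaling to a library's total. The BME and plastic libraries were normalized apart by the authors and deposited as separate tables. Changes are differences of log2(FPKM + 1), a scale that understates the change of low genes. Smad4 itself, which was to be induced, was at 17.2 to 27.3 FPKM in the BME dox libraries and 6.23 to 10.3 in the controls, with the mock library the highest of these controls. On plastic Smad4 was at 18.1 to 73.6 FPKM with dox and 1.54 to 4.76 without. All 8 epithelial markers were expressed in both environments, whereas markers of other lineages were low but not absent. Of 8 leukocyte markers 2 had a mean of at least 0.5 FPKM in each environment, with a summed level of 6.90 to 12.2 (dox) and 7.43 to 18.2 (control) in BME and 4.37 to 39.5 and 3.69 to 16.1 on plastic, most of it Cd68, while Ptprc stayed at or below 0.0958. Csf1r was lower with dox on plastic, at 0.152 to 0.473 FPKM against 0.851 to 1.26 (adjusted p = 0.599 by limma). Of 9 fibroblast and smooth muscle markers 2 reached that mean in BME and 0 on plastic, with sums of 1.19 to 7.44 (dox) and 1.13 to 4.23 (control) in BME and 0.289 to 0.656 over all plastic libraries, and Col1a1 was at 4.13 in BME dox line 889. Of 6 endothelial and platelet markers 1, Tek, reached it in each environment, at up to 3.62 FPKM, and Pecam1 stayed at or below 0.0253. The deepest library was 1.23-fold deeper than the shallowest in BME and 1.32-fold on plastic, as judged from the steps between low FPKM values, while total depth is not known. In such bulk samples fewer cells of a kind and less RNA per cell cannot be told apart.

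Integrins are receptors made of an α and a β chain that bind the extracellular matrix outside the cell and connect to actin or keratin filaments inside it. In gut epithelium the α3β1 and α6β4 receptors bind laminins of the basement membrane, with α6β4 forming the core of hemidesmosomes, while α2β1 binds collagen and α5β1 binds fibronectin. The αv chain pairs with β1, β5, β6 or β8, and αvβ6 and αvβ8 bind latent TGF-β and release the active cytokine. SMAD4 is the common partner of the SMAD proteins that carry TGF-β and BMP signals to the nucleus.

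The laminin receptor chains Itga3, Itga6 and Itgb4, with the shared chain Itgb1, were the most abundant integrin subunits in both environments. Itga3, Itga6, Itgb1 and Itgb4 together made up 78.9% to 85.8% of the summed FPKM of the 10 genes in the BME libraries and 85.6% to 95.1% in the plastic libraries. Itgb1, which also serves the collagen and fibronectin receptors, alone made up 28.6% to 33.3% in BME and 16.3% to 41.2% on plastic. In untreated BME organoids Itgb1 ranked first, with 101.5 FPKM ± 17.2 (SD, n = 3), and it was above Itgb4 (68.1 ± 18.8) in every library. Itgb4 was above Itga3 (56.6 ± 13.9) in every library, but Itga3 and Itga6 (51.3 ± 11.3) changed places between lines. Itga2 followed at 21.8 ± 5.42 FPKM, clear of both neighbours, and the αv group of Itgb6 (11.4 ± 3.98), Itgb5 (11.4 ± 6.78) and Itgav (9.85 ± 2.93) could not be put in order beyond its spread. Itga5, the fibronectin receptor chain, was low at 1.34 ± 0.393 FPKM.

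Itga3 headed the untreated plastic libraries, at 288.7 FPKM ± 36.3 (SD, n = 3), above Itgb1 (171.5 ± 75.3) in each line. Itgb1 and Itgb4 (125.5 ± 26.0) overlapped, and Itga6 stood at 70.3 ± 40.9. Itgb6 (24.8 ± 13.9), Itga2 (19.0 ± 21.1) and Itgav (17.9 ± 12.2) changed places from line to line, and Itgb5 (3.51 ± 0.927) and Itga5 (1.55 ± 1.21) came after them. The wide SDs of Itga2 and Itgav reflect lines that differed several-fold before any dox was given.

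Itgb8, the β chain of the other receptor of latent TGF-β, was at the edge of detection. In BME it was at 0.0867 FPKM in untreated line 682, 0.224 in the mock library of that line, 0 in both libraries of line 700, 0.0602 in untreated line 889 and 0.391 in dox line 889. The step between its values corresponds to 4, 10, 0, 0, 3 and 19 reads, within 0.05 of a whole read, and a count of 0 still allows up to 3 reads, or 0.0664 FPKM in untreated and 0.0742 in dox line 700. On plastic it was listed at 0 in 5 libraries and at 0.0788 FPKM in dox line 560. With means under 0.5 FPKM in both tables Itgb8 was not tested, and the other 9 members were.

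**Figure D1:**
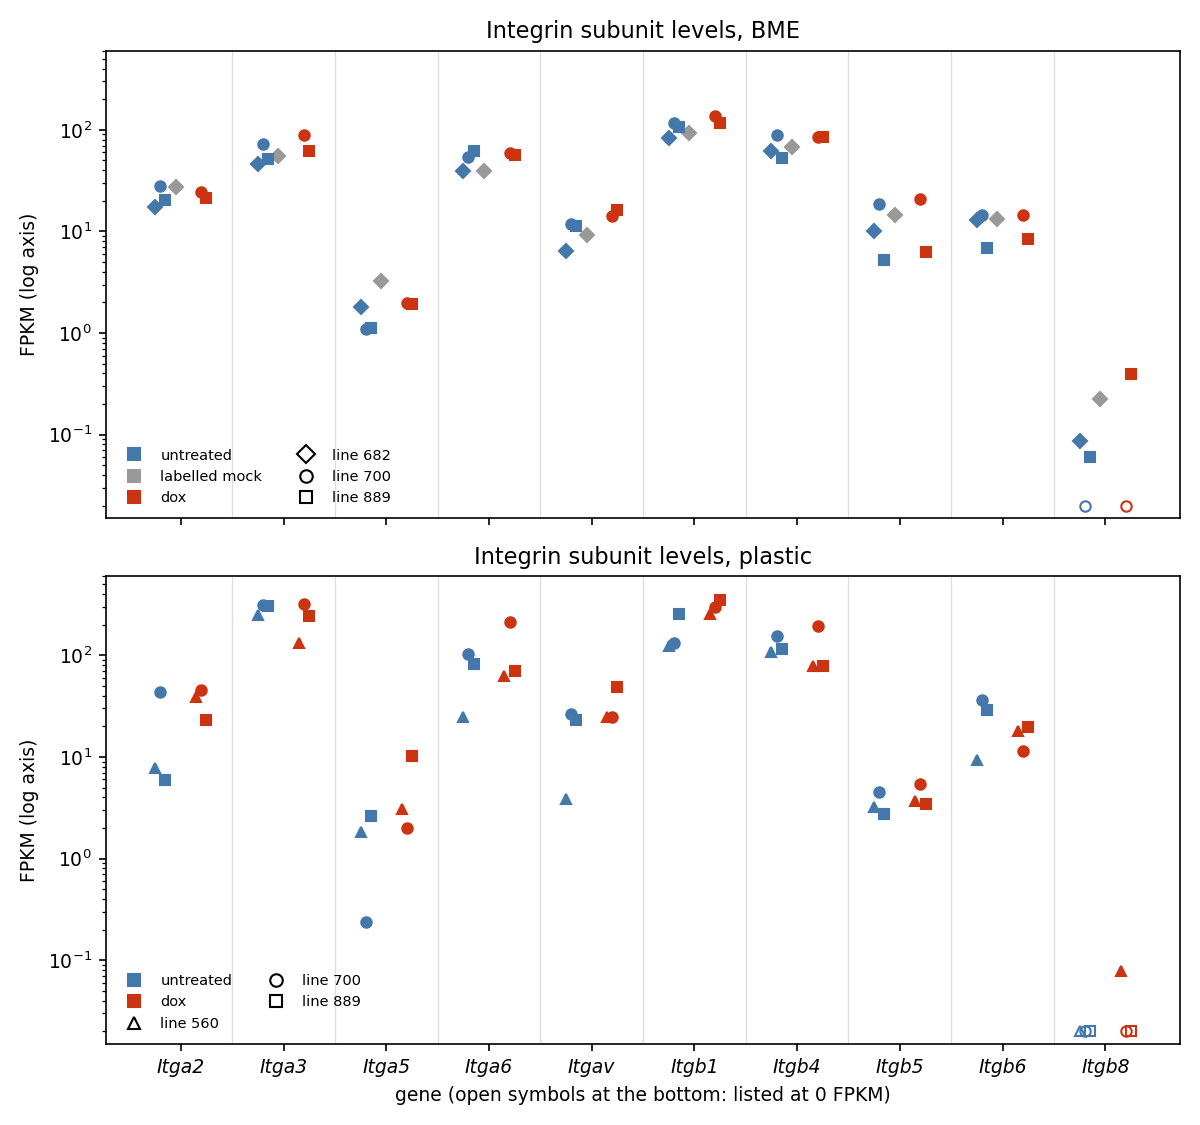
FPKM of the 10 integrin subunits in each library, on a log axis, for BME (top) and plastic (bottom). Each point is 1 library, coloured by treatment and shaped by organoid line, and open symbols at the bottom edge mark values listed at 0. Itgb1, Itgb4, Itga3 and Itga6 sit near the top in both panels and Itgb8 at the bottom. Levels are not comparable between the panels.

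With dox, none of the 9 tested members passed an adjusted p under 0.05 with a change over 1 in either environment, while 3 of the 9, Itga5, Itgb1 and Itgb5, were higher in all 5 dox libraries than in the untreated library of the same line. Of the 11977 genes tested both in BME and on plastic, 8.7% were higher in all 5 pairs, and 8.06% were lower in all 5, which no member was. Each of the 3 was also higher in the mock library than in its untreated partner, as were 78.7% of the genes that were higher in all 5 pairs and 44.4% of the others.

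Itgb1, the β chain shared by the laminin, collagen and fibronectin receptors, lies at chr8:131209554-131257100 (NCBIM37, plus strand). In BME its level was 116.1 FPKM in untreated and 138.0 in dox line 700, 105.9 and 115.5 in line 889, and 82.6 in the untreated and 92.2 in the mock library of line 682. On plastic it was 123.3 untreated and 253.6 with dox in line 560, 132.9 and 296.3 in line 700, and 258.2 and 346.8 in line 889. The dox libraries were 1.09-fold to 1.19-fold above their partners in BME and 1.34-fold to 2.23-fold on plastic, where untreated line 889 reached into the range of the dox libraries. The limma change was 0.87 (SE 0.33) on plastic, with an adjusted p of 0.578, and 0.36 (SE 0.18) in BME, with an adjusted p of 0.959. With line as a block the BME change was 0.19.

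Itga5, the α chain of the fibronectin receptor (chr15:103174720-103197194, minus strand), was higher with dox in every line from a low start. In BME it was 1.11 FPKM in untreated and 1.98 in dox line 700, 1.13 and 1.95 in line 889, and 1.80 and 3.26 in the untreated and mock libraries of line 682. On plastic it was 1.81 untreated and 3.11 with dox in line 560, 0.239 and 2.02 in line 700, and 2.61 and 10.3 in line 889. The mock library held the highest BME value, so the BME arms overlapped, and on plastic the untreated line 889 lay above dox line 700. The dox libraries were 1.73-fold and 1.79-fold above their partners in BME and 1.71-fold to 8.45-fold on plastic, and the mock library was 1.82-fold above its own. The limma change was 1.16 (SE 0.60) on plastic, with an adjusted p of 0.665, and it was 0.60 without dox line 889 and 0.71 without untreated line 700. In the plastic dox library of line 889, where Itga5 was highest, the lysosomal gene Cd68 was at 38.7 FPKM against 2.70 in the untreated library of that line, with Ptprc at 0.0239 and 0.0091. The other leukocyte markers did not follow Cd68 as a set in that pair. Csf1r went from 0.860 untreated to 0.470 with dox, Itgam from 0.121 to 0.0798 and Cd79a from 0 to 0.220. Lyz2, Cd3e and Itgax were at 0 in both libraries. The part of other cells in the Itga5 value was not tested.

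Itgb5, the β chain of a vitronectin receptor (chr16:33829751-33949239, plus strand), was higher by a small and even amount. In BME it was 18.7 FPKM in untreated and 20.8 in dox line 700, 5.24 and 6.29 in line 889, and 10.2 and 14.5 in the untreated and mock libraries of line 682. On plastic it was 3.21 untreated and 3.65 with dox in line 560, 4.54 and 5.43 in line 700, and 2.76 and 3.47 in line 889. The lines differed from each other far more than dox differed from untreated, and the change per dox pair was between 0.14 and 0.25. The change of the mock pair was larger than that of any dox pair, at 0.47. With quantile normalization Itgb5 was no longer higher in every plastic pair.

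Promoter sequence is shown for these 3 genes because they were the members higher in all 5 dox pairs, and SMAD4 with its SMAD partners binds short DNA motifs. Each is the 250 bases before the RefSeq start (GRCm38.p6), 5′ to 3′ on the gene's strand, with capitals for CAGAC, its reverse complement GTCTG, and GGCGCC. 
Itgb1 (chr8:128685404-128685653, plus strand): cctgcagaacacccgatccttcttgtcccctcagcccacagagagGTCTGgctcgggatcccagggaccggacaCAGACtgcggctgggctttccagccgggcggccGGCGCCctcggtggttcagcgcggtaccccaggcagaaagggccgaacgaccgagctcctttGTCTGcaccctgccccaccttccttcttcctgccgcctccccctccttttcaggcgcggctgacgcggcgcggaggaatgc
Itga5 (chr15:103366792-103367041, minus strand): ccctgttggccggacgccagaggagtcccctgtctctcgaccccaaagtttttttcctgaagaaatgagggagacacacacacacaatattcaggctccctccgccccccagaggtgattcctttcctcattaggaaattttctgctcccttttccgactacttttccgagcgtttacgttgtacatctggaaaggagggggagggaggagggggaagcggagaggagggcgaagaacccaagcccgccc
Itgb5 (chr16:33829415-33829664, plus strand): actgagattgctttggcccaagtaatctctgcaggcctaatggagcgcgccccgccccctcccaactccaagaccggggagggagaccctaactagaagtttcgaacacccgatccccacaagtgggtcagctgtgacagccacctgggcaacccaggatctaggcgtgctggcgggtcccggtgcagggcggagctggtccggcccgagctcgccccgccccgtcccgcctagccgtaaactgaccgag

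The Itgb1 window held CAGAC or GTCTG 3 times and GGCGCC once, and the Itga5 and Itgb5 windows held neither. CAGAC on either strand was in 42.2% of the 32851 promoter windows of this length and in 5 of the 10 windows of the 8 members listed in the table. GGCGCC, which reads the same on both strands, was in 9.59% of all windows and in Itgb1 alone among the members. The longer GTCTAGAC, also the same on both strands, was in 0.167% of all windows and in no member window. A match to such short letters is a description of the window and not a binding site.

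Itgav, the α chain of the vitronectin and latent TGF-β receptors, was the only member whose BME dox and control values did not overlap. It was 14.3 FPKM in dox line 700 and 16.2 in dox line 889, against 11.7 and 11.4 in their untreated partners, 6.48 in untreated line 682 and 9.24 in the mock library. The limma change was 0.63 (SE 0.25), with an unadjusted p of 0.0414 and an adjusted p of 0.959. With line as a block it was 0.37 (SE 0.19), with an unadjusted p of 0.109 and an adjusted p of 0.677 by limma, line 682 being present only among the controls. In BME 6.33% of all genes had a dox range wholly above the controls and 5.83% wholly below, where no member was. Without the mock library Itga5 joined it, making 2 members higher against 8.13% of all genes, with none lower against 7.36%. The summed FPKM of the 8 epithelial markers, led by the keratins Krt8, Krt18 and Krt19, was also apart in BME. It was 7899 to 9849 with dox and 4231 to 5229 in the controls. By marker, 4 of the 8 (Krt8, Krt18, Krt19 and Cdh1) had dox ranges wholly above the controls (6.33% of all genes) and 0 wholly below (5.83%). Epcam, Vil1, Cdx2 and Cldn7 overlapped, with Cdx2 and Cldn7 higher in line 700 and lower in line 889. The part of these markers in the Itgav difference was not tested. On plastic the summed FPKM of the 8 markers overlapped, at 11896 to 17386 with dox and 13255 to 14542 without. There 0 of the 8 had dox ranges wholly above the untreated one (7.87% of all genes) and 2 wholly below (7.26%). These were Krt19, at 3061, 1633 and 2645 FPKM with dox against 3956 to 5718 (limma change -0.95, adjusted p = 0.567), and Cldn7, at 230.1, 200.8 and 177.1 against 234.0 to 340.4 (change -0.40, adjusted p = 0.723). Their part in the plastic changes of the integrin subunits was not tested.

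On plastic Itgav followed the line. It was 3.88 FPKM untreated and 24.8 with dox in line 560, 26.6 and 24.6 in line 700, and 23.2 and 48.3 in line 889. Only line 560 had a low untreated level, and the changes were 2.41, -0.11 and 1.03. The limma change was 1.11, and 0.31 without untreated line 560.

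Itga2, the collagen receptor chain, was higher with dox in all 3 plastic lines by very different amounts (not in all 3 with equal totals or quantile normalization), with a limma change of 1.36 (SE 0.71) and an adjusted p of 0.666. It was 7.81 FPKM untreated and 38.9 with dox in line 560, 43.4 and 45.6 in line 700, and 5.88 and 23.3 in line 889. The untreated library of line 700 stood above the dox libraries of both other lines, so the arms overlapped. The change was 2.19 without that library and 0.85 without untreated line 889. In BME Itga2 was 27.8 FPKM in untreated and 24.2 in dox line 700, 20.4 and 21.5 in line 889, and 17.3 and 27.3 in the untreated and mock libraries of line 682. The largest BME difference was that of the mock pair, at 0.63.

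Itga3, the α chain of the laminin receptor α3β1, was higher with dox in both BME pairs and lower in 2 of 3 plastic pairs, without passing a test. In BME it was 72.2 FPKM in untreated and 89.5 in dox line 700, 52.1 and 61.2 in line 889, and 45.6 and 54.9 in the untreated and mock libraries of line 682. On plastic it was 246.8 untreated and 132.0 with dox in line 560, 311.4 and 317.4 in line 700, and 307.9 and 243.9 in line 889. Both BME dox pairs and the mock pair were higher by 0.23 to 0.31, and on plastic lines 560 and 889 were lower by 0.90 and 0.34 with line 700 at 0.028. The difference of the dox change between environments was -0.81 (SE 0.44) by limma, with an unadjusted p of 0.0947 and an adjusted p of 1.00. In lines 700 and 889 alone, which both environments share, it was -0.42 (SE 0.37), and with line as a block -0.67.

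Itga6 and Itgb4, which pair in hemidesmosomes, changed by unlike amounts on plastic. On plastic Itga6 was 24.8 FPKM untreated and 62.5 with dox in line 560, 104.0 and 212.1 in line 700, and 82.1 and 70.3 in line 889. Itgb4 was 106.7 and 79.2 in line 560, 155.2 and 194.1 in line 700, and 114.5 and 78.3 in line 889. With dox both were higher in line 700 (by 1.02 for Itga6 and 0.32 for Itgb4) and both lower in line 889 (-0.22 and -0.54), and only line 560 had more Itga6 with less Itgb4. In BME Itga6 ranged from 39.1 to 61.4 FPKM and Itgb4 from 53.4 to 89.3 over all 6 libraries, and dox values lay within the control range for both.

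Itgb6, the epithelial β chain that binds latent TGF-β, went both ways on plastic. It was 9.37 FPKM untreated and 18.1 with dox in line 560, 36.1 and 11.4 in line 700, and 29.0 and 19.5 in line 889. One line was therefore higher with dox and the other two lower, with changes of 0.88, -1.59 and -0.55. In BME Itgb6 was 14.4 FPKM in both libraries of line 700, 6.88 untreated and 8.50 with dox in line 889, and 12.9 and 13.4 in the untreated and mock libraries of line 682, so line 889 was low in either treatment.

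**Figure D2:**
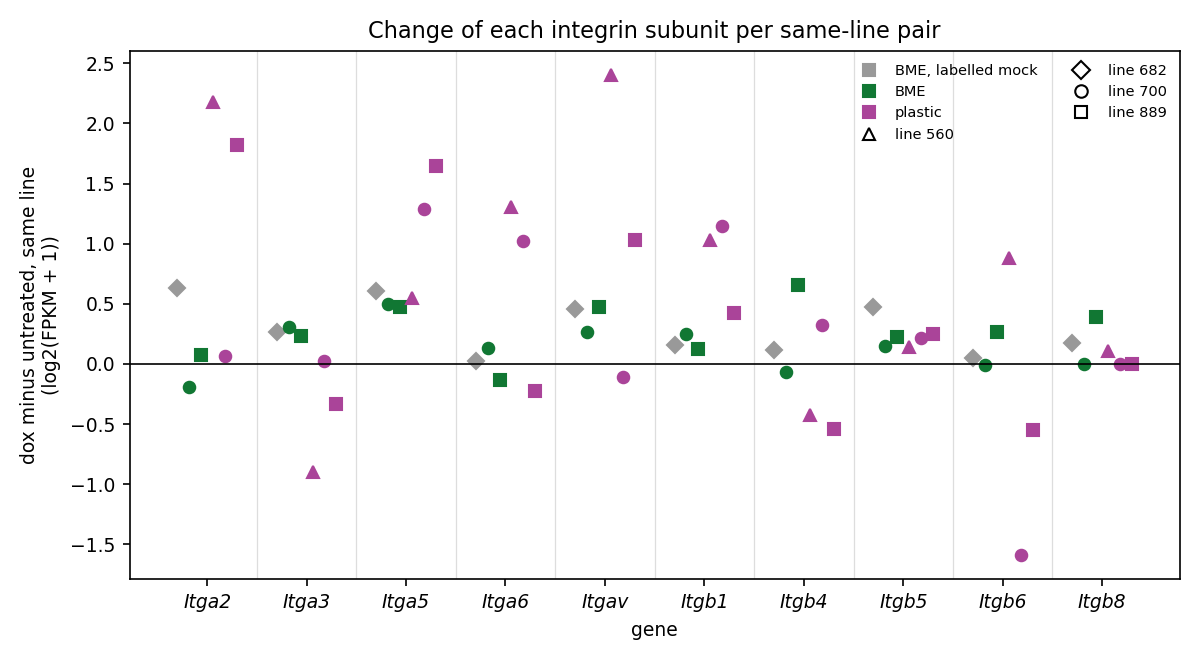
Change of each integrin subunit, dox minus untreated of the same line, in log2(FPKM + 1), with 1 point per pair. Colours mark BME, plastic and the pair of line 682 whose dox library is labelled mock, and shapes mark the line. Itga5, Itgb1 and Itgb5 lie above 0 in every pair, the plastic points of Itga2 and Itgav spread from near 0 to over 2, and those of Itgb6 lie on both sides of 0.

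The tests were made with limma over 12996 genes in BME and 12333 on plastic. No member was called in BME, where 0.0231% of all genes were, and none on plastic, where 0.0324% were, by limma. At an unadjusted p under 0.05 there was 1 of 9 members in each environment, both higher with dox: Itgav in BME, where 2.62% of all genes were higher and 1.47% lower at that p, and Itgb1 on plastic (0.0346), where 4.56% were higher and 3.73% lower. With line as a block it was 0 members in BME, where 4.38% of all genes were higher and 3.03% lower at that p, and 3 on plastic (Itga2, Itga5 and Itgb1), all higher, where 7.44% of all genes were higher and 6.05% lower. The lowest adjusted p of these 3 was 0.222 by limma. Without the mock library, and with no block, 0 members in BME had an unadjusted p under 0.05 by limma. The median over all 10 members, the untested Itgb8 included, of the mean same-line change was 0.19 in BME (0.14 in line 700 alone and 0.25 in line 889 alone), against -0.011 for all genes. The plastic median was 0.45 (0.32 to 0.55 when 1 line was left out), against 0.0088 for all genes, and with Itgb8, which was near 0 in both arms, left out it was 0.70. In BME 5 of 9 members were higher in both dox pairs (27.2% of all genes) and none was lower in both (29.5%). On plastic 4 of 9 were higher in all 3 pairs (18.6% of all genes; 3 members with equal totals and 2 with quantile normalization) and none lower (18.7%; 1 member, Itga3, with either scaling), and no member had dox and untreated ranges apart, against 7.87% of all genes higher and 7.26% lower. The difference of the dox change between environments was called by limma for 0 members and 0% of 11977 genes, with 0 members and 303 genes (2.53%) at an unadjusted p under 0.05. For a single member the exact two-sided permutation test could not go below 0.133 with 2 dox against 4 control libraries, or 0.1 with 3 against 3, so it could not pass 0.05.

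Because α and β chains reach the surface as pairs, the ratio of partner chains within each library was also set out, on the FPKM scale, which is per length and needs no scaling between libraries. The ratios were chosen after the levels were seen, and how often ratios of other genes show the same order was not computed. Itgb6 per Itgav was lower with dox in all 5 dox pairs and in the mock pair. On plastic it went from 2.41 to 0.727 in line 560, from 1.36 to 0.463 in line 700 and from 1.25 to 0.404 in line 889, and the arms did not overlap. In BME it went from 1.23 to 1.00 in line 700 and from 0.606 to 0.526 in line 889, and from 1.99 to 1.45 in the mock pair, with arms that overlapped because line 889 was low throughout.

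Itgb4 per Itga6 was lower with dox in all 3 plastic lines. It went from 4.31 to 1.27 in line 560, from 1.49 to 0.915 in line 700 and from 1.39 to 1.11 in line 889, so the highest dox ratio was under the lowest untreated one. In BME it was lower in line 700 (1.67 to 1.45) and higher in line 889 (0.869 to 1.51). Itgb1 per summed Itga2, Itga3, Itga5, Itga6 and Itgav was higher in all 3 plastic lines, going from 0.433 to 0.970, from 0.274 to 0.492 and from 0.612 to 0.876, with overlapping arms. In BME this ratio kept between 0.686 and 0.749 in all 6 libraries. Itgb5 per Itgav was lower in 4 of the 5 dox pairs. Over the 8 comparisons of 4 ratios in 2 environments, the exact two-sided permutation p was 0.1 for Itgb6 per Itgav and for Itgb4 per Itga6 on plastic, the smallest it can give with 3 against 3, and 0.4 after Benjamini-Hochberg adjustment.

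**Figure D3:**
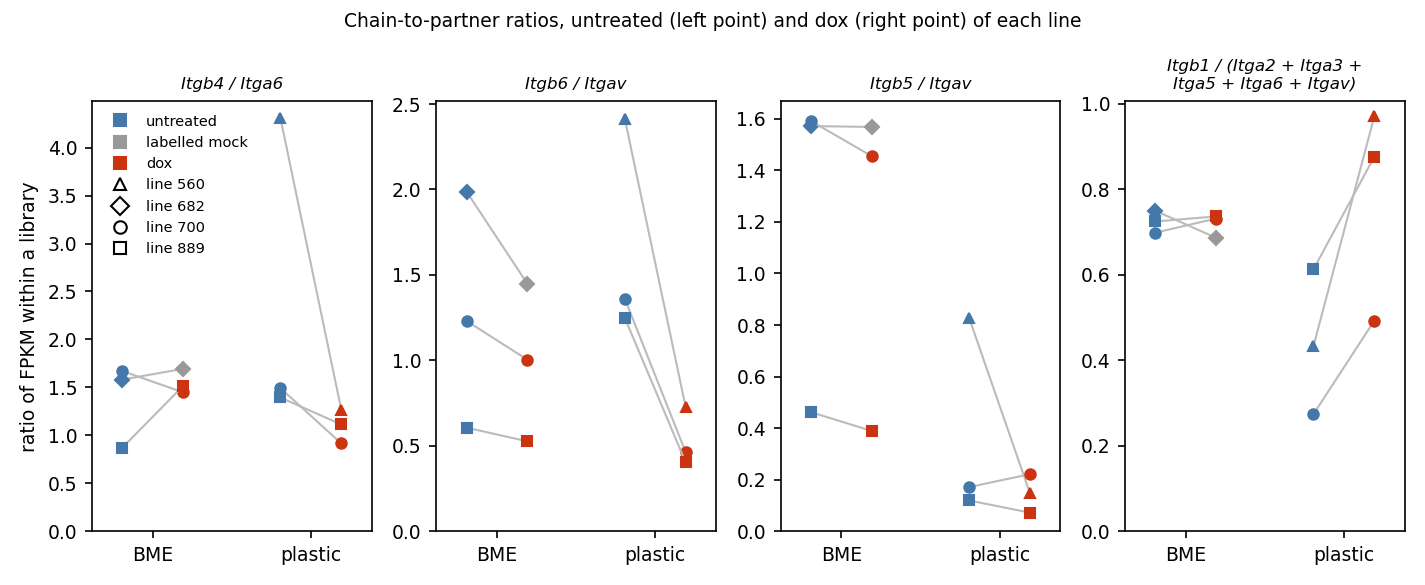
Ratio of FPKM between partner integrin chains within each library, from 0 on a linear axis, with a grey line joining the untreated and the dox (or mock) library of each organoid line. On plastic Itgb6 per Itgav lies between 1.25 and 2.41 untreated and between 0.404 and 0.727 with dox, and Itgb4 per Itga6 has its 3 dox points below its 3 untreated points.

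Levels in BME and on plastic were set against each other only by rank, as the percentile of a gene's FPKM among the 11977 genes tested in both tables, in the same library. Growth environment, deposited table and any batch of preparation cannot be told apart here. Itga3 was the member whose place differed most clearly. In untreated organoids it stood at the 82.7, 88.9 and 85.0 percentile in BME lines 682, 700 and 889, and at 96.7, 97.8 and 97.9 in plastic lines 560, 700 and 889. The mean was 85.5 ± 3.13 (SD, n = 3) in BME and 97.5 ± 0.683 on plastic, a difference of 11.9 percentile points (SE 1.59), with an adjusted p of 0.0215 by limma. It was the only one of 9 members called, where 3.32% of all genes were called higher and 1.9% lower on plastic. With dox its percentile was 90.7 and 86.6 in BME and 95.1, 97.4 and 96.6 on plastic, so all 6 plastic libraries were above all 6 BME libraries, as for 8.25% of all genes, while 6.31% had the reverse order.

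The Itga3 call rested on few libraries. With line as a block the difference was 10.9 points with an adjusted p of 0.0664, and leaving out 1 untreated library ended the call for BME line 682 (adjusted p = 0.0623), BME line 889 (0.0536), plastic line 700 (0.0708) and plastic line 889 (0.0966) by limma, with differences of 10.5 to 11.8 points.

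Itgb4 also had untreated ranges that did not overlap, at the 85.4 to 91.1 percentile in BME and 92.5 to 95.4 on plastic, as for 18.2% of all genes, with 15.3% lower on plastic. Its difference was 5.94 points (SE 1.62) with an adjusted p of 0.0841 by limma. Itgb6 stood at 31.5 to 52.2 in BME and 49.1 to 79.8 on plastic, and Itgav at 29.9 to 46.1 and 28.8 to 73.5, with line 560 the low plastic library for both. Neither was called by limma, with differences of 23.8 points for Itgb6 (SE 9.89, adjusted p = 0.191) and 17.1 for Itgav (SE 12.8, adjusted p = 0.440). Both values depended on the libraries used. Without plastic untreated line 560 the differences were 33.3 points for Itgb6 (adjusted p = 0.0409) and 31.5 for Itgav (adjusted p = 0.0335), in a limma fit that called 8.86% of all genes higher and 8.02% lower on plastic. The Itgav difference was 9.17 points without plastic line 700 and 10.6 without plastic line 889, with adjusted p of 0.737 and 0.738, and that of Itgb6 was 17.3 to 27.6 when any library other than line 560 was left out.

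Itgb5 had a lower mean place on plastic, at 25.5 ± 4.46 (SD, n = 3) against 42.4 ± 17.5 in BME, with ranges that overlapped because BME line 889 was at 25.0. The difference was -16.9 points (SE 8.77, adjusted p = 0.274 by limma), and it was -8.20 without BME line 700 and -25.7 without BME line 889. In the dox libraries 6 of 9 members (Itga2, Itga3, Itga5, Itga6, Itgav and Itgb1) had every plastic rank above every BME rank, as did 19.7% of all genes. No member was called in the dox libraries by limma, where 0.0751% of all genes were called higher and 0.00835% lower on plastic, and at an unadjusted p under 0.05 there were 4 members (Itga2, Itga3, Itgav and Itgb1), all higher on plastic, where 9.45% of all genes were higher and 8.34% lower at that p. Itga5 in plastic dox line 889 reached the 50.0 percentile, against 18.8 and 19.9 in the other plastic dox libraries.

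**Figure D4:**
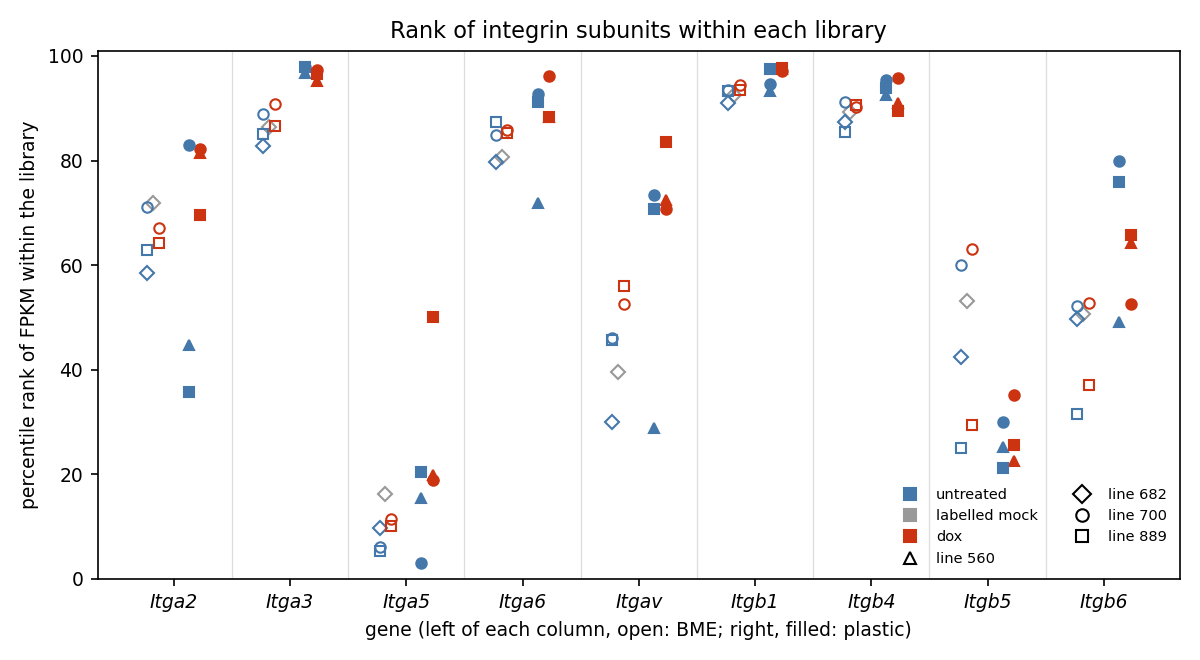
Percentile of each tested integrin subunit among 11977 genes of the same library, with BME libraries as open symbols at the left and plastic libraries as filled symbols at the right of each column. For Itga3 all plastic libraries (95.1 to 97.9) lie above all BME libraries (82.7 to 90.7), while the columns of the other genes overlap.

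The other genes of the pathway came from hand-written lists and none was called by limma in either environment. The other 17 integrin subunits were mostly silent, with 4 at a mean of 0.5 FPKM or more in BME and 0 on plastic. Among 22 integrin activators and adhesion adaptors tested in both tables, 5 were higher in all 5 dox pairs (Vcl, Pxn, Ptk2, Bcar1 and Plec) and 1 was lower (Parva), beside 8.7% and 8.06% of all genes, and they are named here after their values were seen. Ptk2, the focal adhesion kinase that integrin clustering activates, was 13.9 FPKM in untreated and 25.2 in dox line 700 in BME, and 14.6 and 17.1 in line 889. On plastic Ptk2 was 12.8 and 24.2 in line 560, 20.9 and 95.7 in line 700, and 19.8 and 31.6 in line 889. Its dox libraries lay above all control libraries in both environments, including the mock library (15.4). The mock library was itself above its untreated partner (10.7) by 0.48, against 0.82 and 0.21 in the BME dox pairs of lines 700 and 889. The limma change in BME was 0.58 (SE 0.22, adjusted p = 0.959). The limma change on plastic was 1.22 (SE 0.52, adjusted p = 0.606).

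In BME 5 of 23 tested adaptors had dox ranges wholly above the controls (6.33% of all genes), and on plastic 3 of 23 (7.87%). Beside Ptk2, those in BME were Pxn (paxillin), at 80.9 and 84.8 FPKM with dox against 67.7 to 75.9, and Bcar1, a scaffold of focal adhesions, at 53.7 and 48.9 against 34.2 to 45.9. The others in BME were Cd151, a tetraspanin that associates with laminin-binding integrins, at 103.3 and 120.3 FPKM with dox against 77.9 to 99.5, and Sharpin, an inhibitor of integrin activation, at 40.2 and 51.2 against 31.2 to 38.5. On plastic they were, beside Ptk2, Pxn, at 121.8, 146.9 and 163.2 FPKM against 91.6 to 117.3, and Plec (plectin), which ties Itgb4 to keratin filaments, at 37.2, 59.2 and 42.1 against 32.9 to 36.2. None of these passed adjustment, and Pxn and Ptk2 were apart in both environments.

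Of 12 integrin ligands tested in both tables, 2 were higher in all 5 dox pairs and 1, Npnt, was lower, beside 8.7% and 8.06% of all genes. The 2 were Lama3 and Lamb3, laminin chains of the epithelial basement membrane to which α3β1 and α6β4 bind, and both were also higher in the mock pair. Lamb3 was 36.8 FPKM in untreated and 48.6 in dox line 700 in BME, 26.5 and 46.9 in line 889, and 26.0 and 30.7 in the untreated and mock libraries of line 682. Lama3 on plastic was 19.5 and 51.2 in line 560, 47.4 and 78.7 in line 700, and 32.3 and 53.5 in line 889. Each had its dox range above the controls in that environment, with limma changes of 0.67 for Lamb3 in BME (SE 0.18, adjusted p = 0.959) and 0.93 for Lama3 on plastic (SE 0.35, adjusted p = 0.583). Lamb3 was the 1 such ligand of 13 tested in BME (6.33% of all genes), and Lama3 the 1 of 12 on plastic (7.87%). In the other environment the ranges overlapped, with Lama3 in BME at 18.3 and 11.1 FPKM with dox against 3.14 to 12.7, and Lamb3 on plastic at 101.7 to 178.2 against 64.2 to 104.0.

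Npnt (nephronectin) was below the untreated range on plastic, at 56.3, 41.6 and 51.0 FPKM with dox against 61.0 to 70.7, with a limma change of -0.38 (SE 0.19, adjusted p = 0.657). It was the 1 ligand of 12 tested there with this order, as for 7.26% of all genes. Fn1 (fibronectin), the ligand of the Itga5 receptor, was higher in 4 of 5 dox pairs. It was 2.67 FPKM in untreated and 13.0 in dox line 700 in BME, 7.74 and 17.7 in line 889, and 4.42 and 14.8 in the untreated and mock libraries of line 682. On plastic it was 43.9 and 163.8 in line 560, 29.3 and 458.7 in line 700, and 232.0 and 198.7 in line 889. Line 889 on plastic, with the highest untreated Fn1, was thus the one pair that did not show it, and the mock library again lay with the dox libraries. Thbs1 (thrombospondin-1) had changes of -1.13 and -0.59 in BME lines 700 and 889 and 1.14, -0.0021 and -1.14 in plastic lines 560, 700 and 889. In BME 5 of 13 ligands were higher in both dox pairs (27.2% of all genes) and 3 (Npnt, Thbs1 and Spp1, osteopontin) were lower in both (29.5%). These 3 were also lower in the mock pair, where Spp1 went from 73.4 to 1.31 FPKM. That Spp1 change was -5.01, against -1.70 and -2.34 in BME lines 700 and 889. On plastic Spp1 changed by -1.65, 0.0085 and 0.57. Fn1, Thbs1 and Spp1 are named here after their values were seen.

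Among the 4 genes of latent TGF-β and its binding proteins tested in both tables, Tgfb1 and Ltbp3 were higher in all 5 dox pairs (8.7% of all genes) and in the mock pair. Tgfb1, whose latent form carries the binding site for the αv integrins, was 34.9 FPKM in untreated and 39.3 in dox line 700 in BME, 21.5 and 43.2 in line 889, and 22.6 and 29.4 in the untreated and mock libraries of line 682. On plastic Tgfb1 was 54.4 and 96.2 in line 560, 31.0 and 76.1 in line 700, and 34.5 and 238.9 in line 889. The dox values were above every control in both environments (6.33% of all genes in BME and 7.87% on plastic), with limma changes of 0.62 (SE 0.22, adjusted p = 0.959) and 1.61 (SE 0.46, adjusted p = 0.463). Tgfb3 had the opposite order on plastic, at 2.77, 1.17 and 2.96 FPKM with dox against 3.63 to 6.25 without, a change of -0.77 (SE 0.33, adjusted p = 0.606 by limma). In BME Tgfb3 was higher in both dox pairs and in the mock pair.

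**Figure D5:**
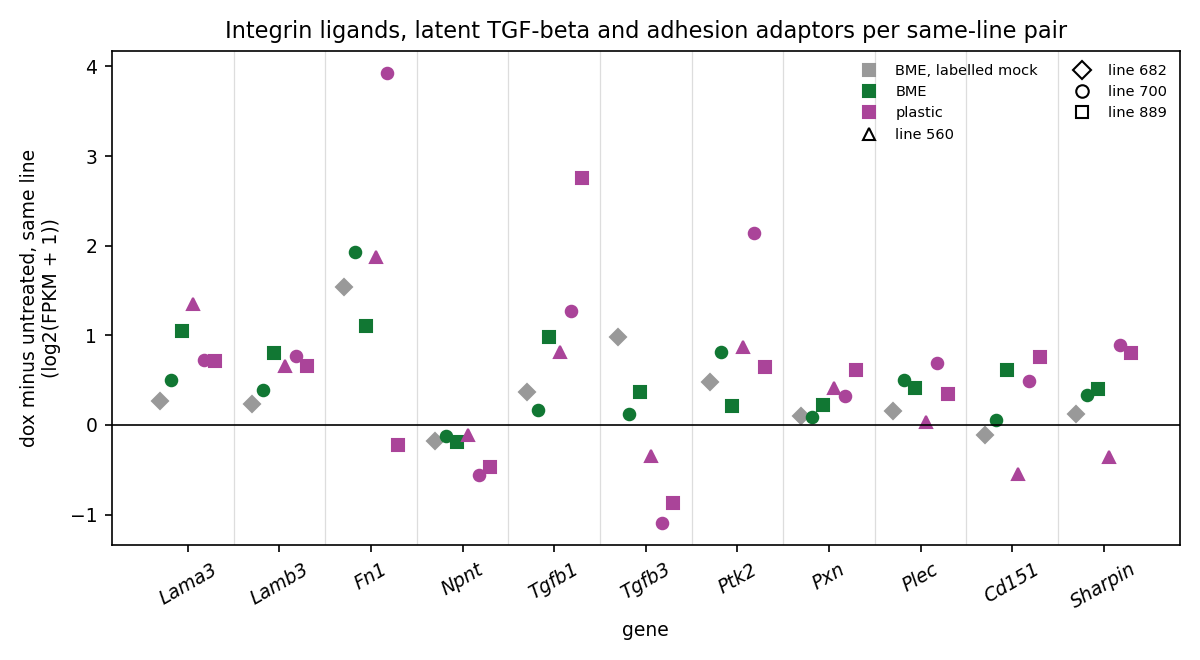
Change per same-line pair, dox minus untreated in log2(FPKM + 1), for 11 genes of integrin ligands, latent TGF-β and adhesion adaptors, coloured and shaped as in the plot of the integrin subunits. Lama3, Lamb3, Tgfb1, Ptk2, Pxn and Plec lie above 0 in every pair and Npnt below 0, while Fn1 is below 0 in plastic line 889 alone.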

How the data were processed

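RNA-Seq of 12 organoid libraries was analysed. The authors quantified reads with kallisto and made the deposited FPKM tables with DESeq2, 1 table per environment. The genome build in the submitters' processing notes is mm9, and software versions and annotation are not given in the sources used here. The authors' dox against no dox tables (mean counts, log2 fold changes, Wald statistics, p-values) were not used. The FPKM are not counts, so total depth and counting error are not known. Genes with a mean of at least 0.5 FPKM over the 6 libraries of a table were tested as log2(FPKM + 1) with limma 3.58.1 (trend, two-sided, R 4.3.3), with Benjamini-Hochberg adjustment over all genes. A call needed an adjusted p under 0.05 and, for dox, an absolute change over 1. Percentile ranks were compared the same way without the limit on the change. Exact permutation tests used scipy 1.17.1. The steps were tested on simulated data.

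Groups and lines came from the labels. Same-numbered libraries are the same organoid line, and their deviations from the group means correlated at 0.744 in BME, where 2 dox lines make this a single contrast, and at 0.461, 0.612 and 0.247 on plastic. The design of the study states no block, so line as a block was an alternative, as were another pseudocount (0.1), no filter, equal totals, quantile normalization, leaving out libraries and leaving out the mock library.

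The 10 members and the other lists were chosen with earlier results of these data known. Named were all members. From each other list of the pathway, marker lists apart, and per environment, every called gene was named, and otherwise up to 3 genes with the largest change among those with dox and control ranges apart. For each member with a change over 1 in any pair, the 3 genes with the most similar changes were named. Gene positions are from GENCODE M1 (NCBIM37, the same assembly as mm9), with all 10 members matched, and promoters from RefSeq (GRCm38.p6), with 8 of 10 members matched. One gene of the ligand list and 1 of the genes with similar changes are not reported here.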

Additional observations from a re-analysis of the deposited data

Results flagged for a closer look

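Itgb6 in BME was low in untreated line 889. Its 6.88 FPKM stood apart from the other 3 control libraries (12.9, 13.4 and 14.4), with a gap to the nearest of 0.842 of the whole range on the log2(FPKM + 1) scale, above Dixon's 95% limit for 4 samples. On the FPKM scale the gap was 0.794 of the range, under that limit. The values 12.9 and 13.4 came from the untreated and mock libraries of line 682, so the 4 samples were not all separate lines, which the limit assumes. The dox library of the same line was also low, at 8.50 FPKM. Chance alone flags about 1 in 20 such groups, and 10 members were examined.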

How the results depend on the processing

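Of 313 single-member values under an alternative, 286 kept their direction and side of the threshold. The count of members called for dox stayed 0 in both environments and for the difference between environments in every alternative run. For rank, 1 member was called, but 0 with dox libraries, 0 with line as a replicate block and 0 to 3 when 1 library was left out. In that block fit Itga3 differed by 10.9 points with an adjusted p of 0.0664 (limma), only lines 700 and 889 being paired. With dox libraries Itga3 differed by 7.72 points (adjusted p = 0.143). The block changed no other call. All genes called by rank numbered 626, against 0 with the block, 10 with dox libraries and 9 to 2021 without 1 library. All genes called for dox numbered 3 in BME, against 0 with the block, 1 with the pseudocount of 0.1, 0 without the mock library and 0 to 37 without 1 library. On plastic they numbered 4, against 7 with the block, 10 with that pseudocount, 0 with no filter, 11 with equal totals and 0 to 55 without 1 library.

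Small changes turned direction, given here with the range without 1 library. In BME Itga2 went from 0.0046 to -0.059 (block), -0.071 (equal totals), -0.029 (quantile) and -0.12 to 0.098, being negative without untreated 682, dox 700 or untreated 889. Itgb6 went from -0.046 to 0.13 (block), 0.022 (no mock) and -0.39 to 0.30, being positive without untreated 682, untreated 700 or dox 889. Itgb5 went from 0.063 to -0.013 (equal totals) and -0.73 to 0.85, being negative without dox 700 or untreated 889. Itgb4 on plastic went from -0.22 to between -0.65 and 0.0035, the latter without dox 889. For rank, Itga2 went from -9.72 to 12.2 points with dox libraries, and Itga6 from 1.31 to between -2.45 and 8.02, being negative without BME 682, plastic 700 or plastic 889. The cause of these turns was not tested. Added after seeing the data, members higher in every plastic pair numbered 4 as deposited, 3 with equal totals and 2 with quantile normalization, those lower 0, 1 and 1 (Itga3), and those higher in BME 5, 5 and 6. With 2 or 3 dox libraries and unknown depth, small changes and Itgb8 could not be resolved.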

Other observations

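The genes nearest to a member across the 6 same-line changes, mock pair included, are given as a description. Likeness was measured as the root mean square difference of the changes (log2) over the 6 pairs, and no test was made. The nearest to Itgb1 were Stam (0.126), an adaptor in endosomal sorting of receptors, Dcaf6 (0.152) and Eaf1 (0.161). Stam changed by 0.94, 1.01 and 0.57 on plastic where Itgb1 changed by 1.03, 1.15 and 0.42. The nearest to Itga5 were Tbkbp1 (0.201), Ormdl3 (0.207), a regulator of sphingolipid synthesis, and Tpp1 (0.216), a lysosomal protease.

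The nearest to Itga2 were Cxcl3 (0.245), a neutrophil-attracting chemokine, Lratd2 (0.352) and Nfkbiz (0.353), a nuclear regulator of NF-κB. Cxcl3 changed by 2.26, 0.012 and 2.14 in plastic lines 560, 700 and 889, where Itga2 changed by 2.18, 0.070 and 1.82. The nearest to Itgav were Glis3 (0.169), Insr (0.185), the insulin receptor, and Lrrc8b (0.330). Bcor (0.193) and Ppp1r12a (0.209) were among the 3 nearest to Itga6, and the nearest to Itgb6 were Ly6k (0.202), Nt5e (0.274) and Lbh (0.281). Nt5e, an ectonucleotidase, changed by 0.98, -1.87 and -0.13 on plastic where Itgb6 changed by 0.88, -1.59 and -0.55.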
